A study of Mus musculus with 18 samples.

Results

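Gene expression was compared between 3 whole embryos at E11.5 that carry the label Dnmt3b-/- and 3 Dnmt3b+/+ embryos, each sequenced as 1 library, across every gene that reached 0.1 FPKM (reads scaled by transcript length and by the size of the library) in at least 3 of these 6 embryos. By this rule 18905 of the 34244 named genes in the RNA-seq table were examined. All embryos were on the FVB background, came from natural matings of Dnmt3b+/- and Dnmt3b+/CI mice and had a beating heart when processed. The null allele is a conventional knockout made with Dnmt3b 2loxP mice, so the change is not limited to a cell type. A further group of 3 embryos, Dnmt3bCI/CI, carries a knock-in made to inactivate the catalytic activity of Dnmt3b. It entered the model so that all 9 embryos gave 1 estimate of the spread, and its values are given where they bear on a gene.

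Dnmt3b is a DNA methyltransferase that places new methyl groups on cytosines of CpG dinucleotides when the early embryo sets up its methylation pattern. Methylation of a CpG-rich promoter is linked to lasting silence of the gene, and promoters of genes used only in germ cells are a well-known group that somatic cells keep methylated. At E11.5 the mouse embryo forms its first muscle fibres, cartilage, sensory ganglia and lens fibres, and blood production passes from the yolk sac to the fetal liver.

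The totals behind the FPKM values were 39221700 to 49808777 reads in Dnmt3b+/+ and 39883309 to 42511105 reads in the libraries labelled Dnmt3b-/-. The targeted gene, Dnmt3b, had 2.25, 1.62 and 2.04 FPKM in Dnmt3b+/+ and 2.45, 3.12 and 3.33 FPKM in the libraries labelled Dnmt3b-/-. The value summed over the gene was higher in the latter (log2 fold change 0.57 ± 0.15, SE, limma adjusted p = 0.0245), with every library above every Dnmt3b+/+ embryo. It did not pass with the 6 embryos of these genotypes alone (adjusted p = 0.0629), nor without the second (0.0648) or the third (0.0591) Dnmt3b+/+ embryo or the second (0.0841) or the third (0.0834) library labelled Dnmt3b-/-. The RNA level of Dnmt3b thus was not lower, and such a sum cannot show that part of a gene is missing, so these libraries are named by their label throughout. The paper used yolk sac DNA to genotype embryos. It also probed Dnmt3b protein by immunoblot in whole embryos of this age, Dnmt3b-/- among them. Neither was examined here, and the RNA values do not speak against the genotype. Sex differed between the groups. Xist, the RNA of the inactive X chromosome, had 63.2 FPKM in the first Dnmt3b+/+ embryo and at most 0.0661 FPKM in the other 5, and the Y-linked genes Ddx3y, Eif2s3y, Kdm5d and Uty had near 0 FPKM in that embryo and were expressed in those 5. A model with a term for the embryos with Xist called 219 higher and 658 lower genes, against 208 and 650 without it. The second Dnmt3b+/+ embryo held almost no liver RNA. Alb, the main plasma protein of hepatocytes, had 85.7, 0.103 and 43.7 FPKM in Dnmt3b+/+ against 9.92, 19.15 and 9.67 FPKM in the libraries labelled Dnmt3b-/-. Over the called lower genes the first library labelled Dnmt3b-/- lay nearest to Dnmt3b+/+, with a median difference of -0.91 against -1.44 and -1.52 in the others, and leaving it out raised the lower genes to 1166.

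With limma on log2(FPKM + 0.1), the libraries labelled Dnmt3b-/- had 208 higher genes (1.1% of those tested) and 650 lower genes (3.44%). These genes, referred to as called, combined a fold of 2 or more with an adjusted p below 0.05. The median log2 fold change was 1.49 over the higher genes, -1.26 over the lower genes and -0.065 over all tested genes. The adjusted p alone was passed by 1840 higher genes (9.73%) and 3159 lower genes (16.7%), so that most passing genes moved by less than 2-fold. The higher genes were mainly genes of low level in Dnmt3b+/+, with a median of 0.157 FPKM there against 1.10 FPKM in the libraries labelled Dnmt3b-/-. Of these genes, 43 had at most 3 reads in every Dnmt3b+/+ library. The lower genes started from a higher level, with a median of 1.31 FPKM in Dnmt3b+/+ and 0.421 FPKM in the libraries labelled Dnmt3b-/-. Because 71 of the higher and 56 of the lower genes passed the filter on low values through 1 genotype alone, their number is a description and not a test. In whole embryos, fewer cells of a type and less RNA per cell cannot be told apart. Further below, members of a list that "passed" met the adjusted p alone. Over all genes the number passing varied with the embryo left out. It was lowest without the second library labelled Dnmt3b-/- (779 higher and 1617 lower) and highest without the first (2274 and 4527). In these fits the filter still asked for 3 embryos. A gene that met it through 1 genotype alone could then not be tested without an embryo of that genotype, which by itself lowers such counts.

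**Figure D1:**
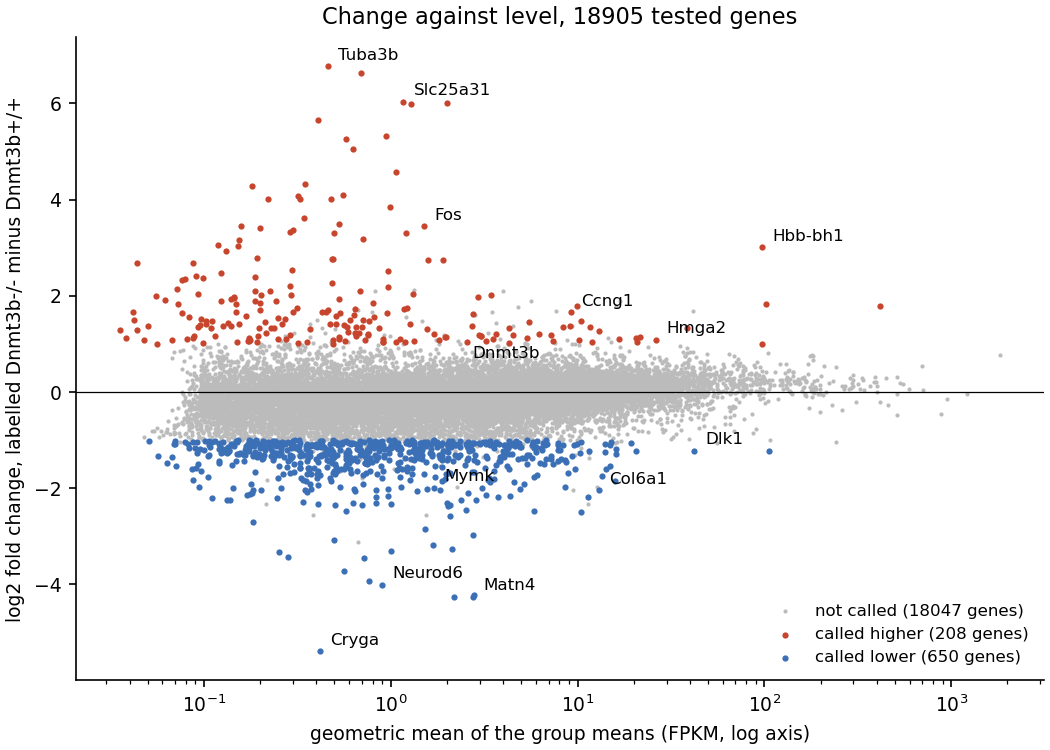
Log2 fold change of the libraries labelled Dnmt3b-/- against Dnmt3b+/+ (y axis) plotted against the geometric mean of the group means in FPKM (x axis, log scale), with 1 point per tested gene. Genes called higher are red, genes called lower are blue and the others are grey. The higher genes with the greatest log2 fold changes, such as Tuba3b at 6.78, lie at low mean levels.

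Genes of germ cells and meiosis were higher. Of 63 listed genes, 41 were tested, 30 were called higher and 0 were called lower, while 34 passed upwards and 2, Hspa1l and Kit, passed downwards. The median log2 fold change of the tested members was 2.13. Without the first, the second and the third library labelled Dnmt3b-/- it was 1.07, 0.97 and 1.05. Only 20 members met the filter in each of those fits, so these medians are not over the same genes as the 2.13. In Dnmt3b+/+ 21 of the 41 were under 0.1 FPKM in every embryo and passed the filter through the libraries labelled Dnmt3b-/- alone, so these 21 could enter only if they rose. The other 22 listed genes, among them the meiotic regulators Stra8 and Spo11 and the piRNA factor Piwil1, stayed below the filter and were not tested.

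The promoters of the 4 called members with the greatest log2 fold changes are shown because these genes were below 0.2 FPKM in every Dnmt3b+/+ embryo and above 4 FPKM in every library labelled Dnmt3b-/-. They are RefSeq sequences of GRCm38.p6 from 250 bases before to 50 bases after the annotated start site, on the strand of the gene. Capitals mark CpG dinucleotides, the sites at which DNA methyltransferases act.
Tuba3b, chr6:145615713-145616012, plus strand: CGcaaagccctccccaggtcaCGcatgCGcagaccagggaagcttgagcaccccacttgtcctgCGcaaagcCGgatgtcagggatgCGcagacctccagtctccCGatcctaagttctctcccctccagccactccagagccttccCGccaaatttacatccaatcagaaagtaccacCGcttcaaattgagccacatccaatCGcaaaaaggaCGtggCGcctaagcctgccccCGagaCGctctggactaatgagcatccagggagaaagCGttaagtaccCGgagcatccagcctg
Slc25a31, chr3:40708621-40708920, plus strand: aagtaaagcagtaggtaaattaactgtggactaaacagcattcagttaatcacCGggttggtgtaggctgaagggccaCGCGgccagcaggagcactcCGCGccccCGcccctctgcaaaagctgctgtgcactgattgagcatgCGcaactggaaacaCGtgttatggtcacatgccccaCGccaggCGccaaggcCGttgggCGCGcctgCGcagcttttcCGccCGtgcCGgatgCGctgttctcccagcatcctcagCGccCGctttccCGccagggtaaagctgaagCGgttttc
Taf7l, chrX:134476441-134476740, minus strand: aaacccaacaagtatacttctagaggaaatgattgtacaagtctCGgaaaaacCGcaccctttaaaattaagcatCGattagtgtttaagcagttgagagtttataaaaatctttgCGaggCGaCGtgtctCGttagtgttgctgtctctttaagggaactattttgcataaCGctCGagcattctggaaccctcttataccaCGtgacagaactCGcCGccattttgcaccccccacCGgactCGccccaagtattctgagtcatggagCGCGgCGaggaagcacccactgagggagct
Tuba3a, chr6:125286032-125286331, minus strand: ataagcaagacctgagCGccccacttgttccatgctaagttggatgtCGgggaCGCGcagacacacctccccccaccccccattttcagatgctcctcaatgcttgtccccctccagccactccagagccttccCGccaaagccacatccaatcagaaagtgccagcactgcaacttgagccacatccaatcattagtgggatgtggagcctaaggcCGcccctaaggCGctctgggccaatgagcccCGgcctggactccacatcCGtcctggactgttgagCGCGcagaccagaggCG
These windows held 16 CpGs in Tuba3b, 22 in Slc25a31, 17 in Taf7l and 12 in Tuba3a, against a median of 7 over all 27025 promoters of the table. The number of CpGs relative to that expected from the base composition was 0.676 for Tuba3b, 0.826 for Slc25a31, 1.03 for Taf7l and 0.472 for Tuba3a, against a median of 0.389 over all promoters. The E-box CACGTG, which reads the same on both strands, was found in Slc25a31 at position -93 and in Taf7l at position -49 from the start site. The hexamer GCGGGA or its reverse complement TCCCGC, the core of E2F sites, was found in Tuba3b at position -106, in Tuba3a at position -119 and in Slc25a31 at position 20. Over the 27 of the 30 called germline genes with a promoter in the table, 11 (40.7%) held the E-box, against 7.24% of all promoters, and 14 (51.9%) held the second motif, against 20% of all promoters. Of the 54 members of the whole germline list with a promoter, called or not, 17 (31.5%) held the E-box and 21 (38.9%) the second motif. The tested genes had higher values than all promoters, with a median of 20 CpGs and of 0.735 for observed over expected CpGs, the E-box in 9.65% and the second motif in 34.4%. Only 12478 of the tested genes (66%) have a promoter in the table, so the baseline of tested genes is incomplete, and no enrichment is read from any of these shares. The 2 motifs were searched separately, so matches may overlap, and a match is a string of letters and not an observed site.

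Tuba3b, an alpha-tubulin of the testis, had 0.0252, 0.0113 and 0.0129 FPKM in Dnmt3b+/+ and 11.2, 16.3 and 11.1 FPKM in the libraries labelled Dnmt3b-/-. All Dnmt3b+/+ libraries had at most 3 reads, and the gene was at least 336-fold higher in the libraries labelled Dnmt3b-/- (adjusted p = 3.94e-07). In Dnmt3bCI/CI embryos it had 0.0753, 0.130 and 0.117 FPKM, far below the level of the libraries labelled Dnmt3b-/- (adjusted p = 2.01e-06). Its close relative Tuba3a, which can share reads with it, had 0.193, 0.0665 and 0.0676 FPKM in Dnmt3b+/+ and 5.73, 10.7 and 8.34 FPKM in the libraries labelled Dnmt3b-/-.

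Slc25a31 encodes the ADP/ATP carrier of male germ cell mitochondria. It had 0.0947, 0.132 and 0.0839 FPKM in Dnmt3b+/+ and 14.2, 13.2 and 12.2 FPKM in the libraries labelled Dnmt3b-/-, a log2 fold change of 6.03 ± 0.13 (SE, adjusted p = 1.05e-07). The Dnmt3bCI/CI embryos lay between the other groups at 3.79 ± 0.493 FPKM (SD, n = 3), above Dnmt3b+/+ (adjusted p = 1.61e-06) and below the libraries labelled Dnmt3b-/- (adjusted p = 1.91e-04). Taf7l, an X-linked relative of a general transcription factor subunit, had 0.0299, 0.0268 and 0.0227 FPKM in Dnmt3b+/+ and 7.64, 4.87 and 6.49 FPKM in the libraries labelled Dnmt3b-/-. It was at least 209-fold higher, and the Dnmt3bCI/CI embryos reached 3.81 ± 0.207 FPKM (SD, n = 3). In these 2 genes the Dnmt3bCI/CI embryos were thus called above Dnmt3b+/+ as well. For Tuba3b they were not (log2 fold change 0.83, limma adjusted p = 0.347), though every Dnmt3bCI/CI embryo lay above every Dnmt3b+/+ embryo. The added 0.1 FPKM shrinks folds at such low levels, so the calls do not show that the genes differ.

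Genes that act against transposons in germ cells were among the higher ones. Mael, a factor of piRNA-guided silencing, had 0.0646, 0.0463 and 0.0589 FPKM in Dnmt3b+/+ and 6.93, 5.84 and 4.97 FPKM in the libraries labelled Dnmt3b-/- (log2 fold change 5.25 ± 0.16, SE, adjusted p = 8.46e-07). The piRNA helicase Mov10l1 had a log2 fold change of 3.33, and the Piwi protein gene Piwil2 had one of 1.97, with 0.0228, 0.0450 and 0.0675 FPKM in Dnmt3b+/+ against 0.464, 0.450 and 0.482 FPKM in the libraries labelled Dnmt3b-/-. The groups did not overlap for Mael or Piwil2. Dazl and Ddx4, which encode RNA-binding proteins of germ cells, had log2 fold changes of 4.01 and 3.61. Dazl had 0.152, 0.00682 and 0.0953 FPKM in Dnmt3b+/+ and 2.85, 2.74 and 2.56 FPKM in the libraries labelled Dnmt3b-/-.

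Rec8, the meiotic cohesin subunit, had 0.122, 0.0877 and 0.0742 FPKM in Dnmt3b+/+ and 3.55, 3.19 and 2.92 FPKM in the libraries labelled Dnmt3b-/- (log2 fold change 4.09 ± 0.13, SE, adjusted p = 8.46e-07). Sycp1 and Syce1, which form the central part of the synaptonemal complex, had log2 fold changes of 2.75 and 5.05. Sycp3, a lateral element of the same complex, passed the test with a log2 fold change of only 0.73, and the recombinase Dmc1 did not pass (0.35). Without any 1 of the libraries labelled Dnmt3b-/-, only 20 of the listed genes met the filter on low values, and 10 were called, with 13, 10 and 13 passing upwards without the first, the second and the third. Hspa1l and Kit did not pass without the second or the third Dnmt3b+/+ embryo. Without a Dnmt3b+/+ embryo 41 were tested and 29 or 30 were called.

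**Figure D2:**
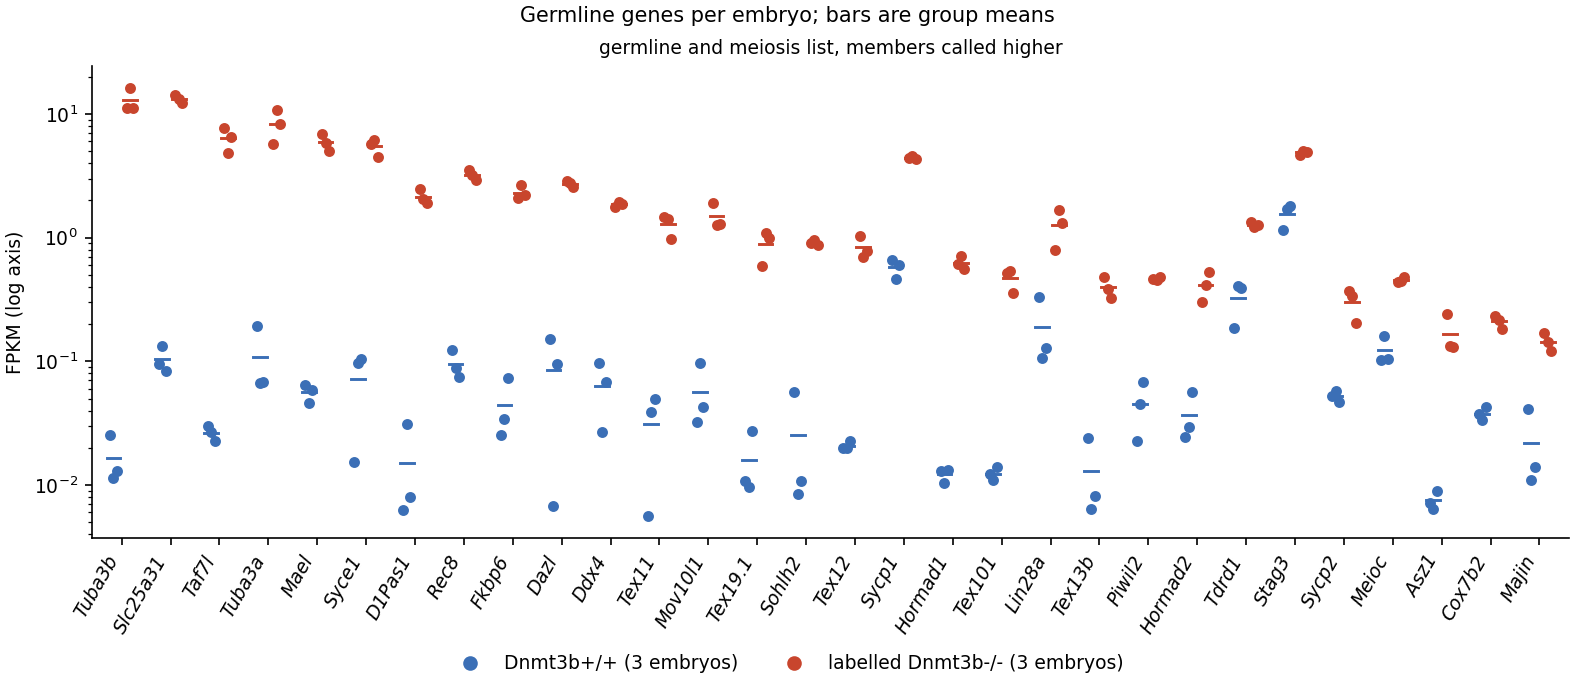
FPKM (y axis, log scale) in each Dnmt3b+/+ embryo (blue) and each library labelled Dnmt3b-/- (red) for the 30 called members of the germline list, ordered by log2 fold change, with bars at group means. Every red point lies above every blue point of the same gene.

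Genes of differentiating skeletal muscle were lower. Of 40 listed genes, all tested, 27 were called lower, 30 passed downwards and 0 passed upwards, with a median log2 fold change of -1.37. Mymk (Myomaker), the membrane protein required for myoblast fusion, had 2.82, 3.27 and 3.999 FPKM in Dnmt3b+/+ and 1.54, 0.498 and 0.555 FPKM in the libraries labelled Dnmt3b-/- (log2 fold change -1.99 ± 0.34, SE, adjusted p = 0.00557). The fast troponin I gene Tnni2 had 0.883, 1.44 and 1.38 FPKM against 0.301, 0.220 and 0.181 FPKM. The embryos did not overlap for either gene, and the first library labelled Dnmt3b-/- was the highest of its group for both. Log2 fold changes were -2.01 for Myh8 and -1.74 for Myh3, the fetal and embryonic myosin heavy chains, and -1.79 for Chrna1, the alpha subunit of the muscle acetylcholine receptor.

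The myogenic regulators did not all follow. Myod1, which commits cells to muscle, had 7.96, 10.4 and 13.2 FPKM in Dnmt3b+/+ and 7.63, 2.55 and 2.98 FPKM in the libraries labelled Dnmt3b-/- (log2 fold change -1.38 ± 0.36, SE, adjusted p = 0.0256). The first library labelled Dnmt3b-/- was thus close to the lowest Dnmt3b+/+ embryo. The genes of muscle progenitors, Pax3 and Pax7, had log2 fold changes of 0.44 (adjusted p = 0.168) and 0.15 (adjusted p = 0.621), and their groups overlapped. The list's median difference from Dnmt3b+/+ was -0.67 in the first library labelled Dnmt3b-/- and -1.54 and -1.73 in the others. Between 19 and 29 members were called lower when 1 embryo was left out, and without the third Dnmt3b+/+ embryo 19 passed downwards.

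Genes of the cartilage matrix were lower. Of 37 listed genes, 36 were in the table and tested, 14 were called lower, 23 passed downwards and 1, Twist1, passed upwards, with a median log2 fold change of -0.78. Matn4, a matrilin of the cartilage matrix, had 10.1, 12.6 and 14.1 FPKM in Dnmt3b+/+ and 1.16, 0.396 and 0.319 FPKM in the libraries labelled Dnmt3b-/-. Acan, which encodes aggrecan, the main proteoglycan of cartilage, had 2.18, 3.90 and 4.07 FPKM against 0.608, 0.192 and 0.0892 FPKM (log2 fold change -3.31 ± 0.43, SE, adjusted p = 0.00198). Both genes had their highest value of the group in the first library labelled Dnmt3b-/-, which still lay below every Dnmt3b+/+ embryo. Cnmd (chondromodulin) had a log2 fold change of -2.36 and Col9a3, a chain of type IX collagen, one of -2.49.

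The main collagen and the regulators of cartilage had smaller log2 fold changes. Col2a1, the main cartilage collagen, had 88.4, 122.2 and 140.3 FPKM in Dnmt3b+/+ and 90.6, 62.5 and 53.2 FPKM in the libraries labelled Dnmt3b-/-, with overlapping groups and a log2 fold change of -0.78 (adjusted p = 0.0293). Sox9, the master regulator of chondrocytes, had 25.1, 26.4 and 28.9 FPKM against 24.1, 22.0 and 18.6 FPKM (log2 fold change -0.32, adjusted p = 0.0413). The sclerotome regulator Pax9 had a log2 fold change of -0.06 and did not pass.

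Matrix genes of loose and fibrous connective tissue were lower too. Of 28 genes, all tested, 14 were called lower, 24 passed downwards and 0 passed upwards, with a median log2 fold change of -1.05. Aspn (asporin), a small leucine-rich proteoglycan, had 1.23, 1.64 and 1.68 FPKM in Dnmt3b+/+ and 0.106, 0.00999 and 0.0419 FPKM in the libraries labelled Dnmt3b-/- (log2 fold change -3.44 ± 0.27, SE, adjusted p = 1.92e-04). Col6a1, a chain of type VI collagen, had 20.5, 30.1 and 28.4 FPKM against 8.59, 5.54 and 5.19 FPKM. Col1a1, the main collagen of bone and dermis, had 133.6, 182.0 and 173.0 FPKM against 73.6, 57.5 and 76.7 FPKM (log2 fold change -1.23 ± 0.16, SE, adjusted p = 0.00201). Groups did not overlap for these 3 genes. The basement membrane chains Col4a1 and Col4a2 had log2 fold changes of 0.22 and 0.04 and did not pass. Leaving out any 1 embryo left 14 to 17 members called lower.

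**Figure D3:**
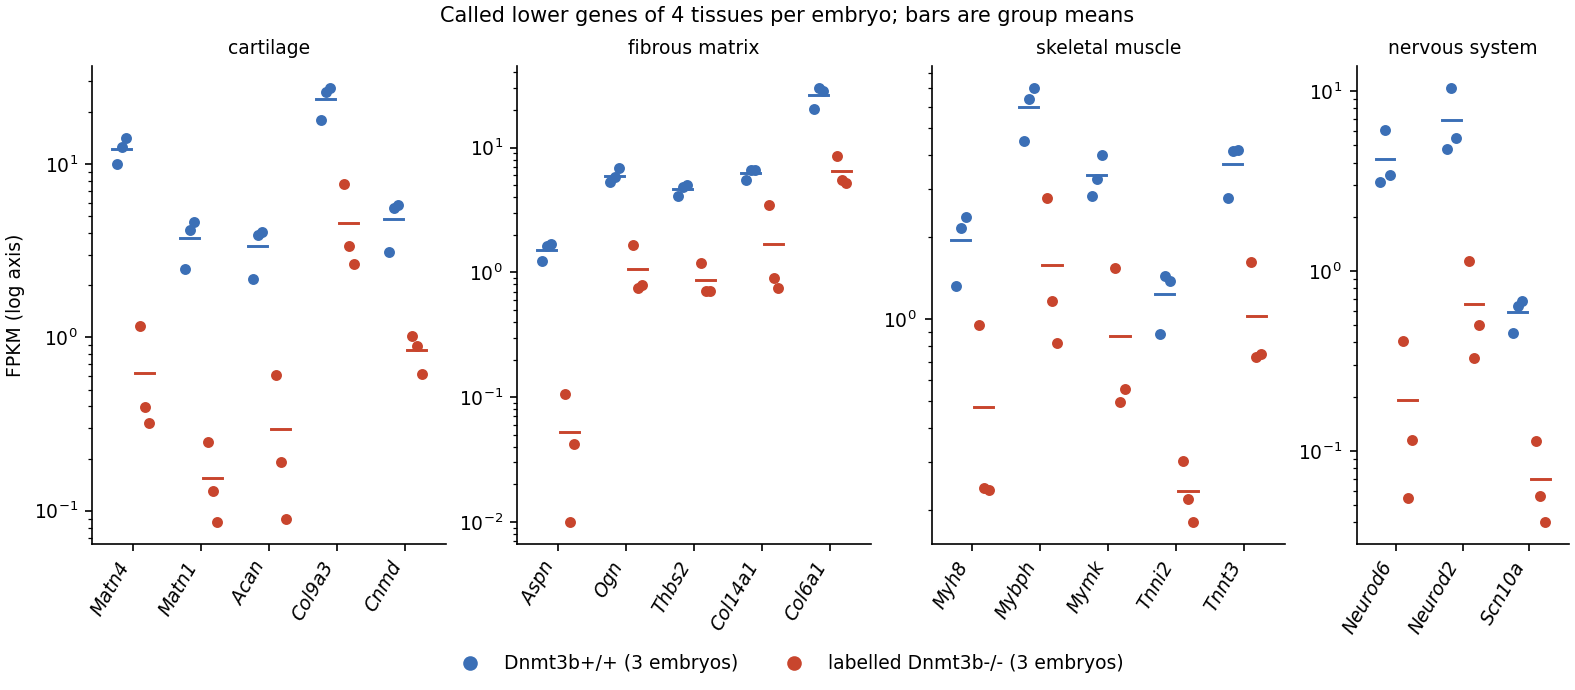
FPKM (y axis, log scale) in each Dnmt3b+/+ embryo (blue) and each library labelled Dnmt3b-/- (red) for called lower genes of cartilage, fibrous matrix, skeletal muscle and nervous system, with bars at group means. Every blue point lies above every red point of the same gene, and the highest red point of most genes is that of the first embryo.

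In the nervous system, the transcription factor genes Neurod6 and Neurod2 and some genes of sensory ganglia were lower. Of 24 proneural and related transcription factors, 3 were called lower. Neurod6 had 3.10, 6.08 and 3.41 FPKM in Dnmt3b+/+ and 0.408, 0.0547 and 0.115 FPKM in the libraries labelled Dnmt3b-/- (log2 fold change -4.00 ± 0.44, SE, adjusted p = 9.05e-04). Neurod2 had 4.78, 10.4 and 5.49 FPKM against 1.14, 0.329 and 0.502 FPKM. Both encode basic helix-loop-helix factors of excitatory neurons that follow the onset of neuronal differentiation. Bhlhe22, at a log2 fold change of -1.09, was the last of the 3. Of the list 4 genes passed downwards, the same share as the 16.7% over all tested genes, 8 without the first library labelled Dnmt3b-/- and 2 without the second or the third embryo of either group.

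Of 30 listed genes of sensory and autonomic ganglia, 29 were tested, 6 were called lower and 8 passed downwards. Scn10a, a sodium channel of nociceptors, had 0.453, 0.635 and 0.682 FPKM in Dnmt3b+/+ against 0.113, 0.0561 and 0.0403 FPKM in the libraries labelled Dnmt3b-/-. Its groups did not overlap. The GDNF-family receptor genes Gfra3 and Gfra2 were lower as well. Th (-0.25), the rate-limiting enzyme of catecholamine synthesis, did not pass. Among 40 genes of differentiated neurons only Cnr1 was called lower and 4 passed downwards, a share below that of all tested genes, at a list median of -0.58. Tubb3, the neuronal tubulin, had 137.6, 273.3 and 170.5 FPKM in Dnmt3b+/+ and 220.7, 122.7 and 117.1 FPKM in the libraries labelled Dnmt3b-/-, with overlapping groups. The counts of neurons and ganglia depended on single embryos, above all on the first library labelled Dnmt3b-/-, whose list medians were 0.07 for neurons and 0.03 for ganglia. Without it, 16 neuronal and 15 ganglion genes were called lower. Ganglion genes called lower were 3 without the second or the third embryo of either group, and neuronal genes were 0 without the second Dnmt3b+/+ embryo or the second or the third library labelled Dnmt3b-/-, 2 without the third Dnmt3b+/+ embryo and 5 without the first. Of 37 genes of neural progenitors and Notch signalling, 3 passed upwards, 2 passed downwards and 0 were called. Without the second Dnmt3b+/+ embryo 8 of them passed upwards and 1 was called, and without the first library labelled Dnmt3b-/- 5 passed downwards. Vim, an intermediate filament gene of progenitors, had 96.5 ± 11.2 FPKM in Dnmt3b+/+ and 95.0 ± 6.55 FPKM (SD, n = 3) in the libraries labelled Dnmt3b-/-, and Nes passed with a log2 fold change of 0.51.

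Crystallin genes of the lens were lower, though with calls that depended on single embryos. Of 39 listed genes of the lens and eye, 31 were tested, 10 were called lower, 9 of them crystallins, and 1, the melanocyte gene Mlana, was called higher. Of the tested members, 5 met the filter on low values through Dnmt3b+/+ alone and Mlana through the libraries labelled Dnmt3b-/- alone, so that Mlana was not called without any 1 of those libraries. Cryba2, a beta-crystallin, had 1.75, 1.21 and 1.18 FPKM in Dnmt3b+/+ and 0.0189, 0.0592 and 0.0620 FPKM in the libraries labelled Dnmt3b-/-, with at most 3 reads in each of the latter, and was at least 22.4-fold lower. Its call and that of Cryba4 held in every alternative that tested them, while Crybb1, Cryba1 and Cryga lost theirs in 12, 7 and 4. Pitx3, a lens transcription factor, was called lower (-1.45). The eye field factors Pax6 (-0.03), Rax (0.10) and Six3 (0.12) did not pass. Without the third Dnmt3b+/+ embryo only 1 member was called lower, without any other embryo except the first library labelled Dnmt3b-/- there were 2 or 3, and the Dnmt3bCI/CI embryos were themselves uneven, with list medians of -0.45, -2.28 and 0.55.

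**Figure D4:**
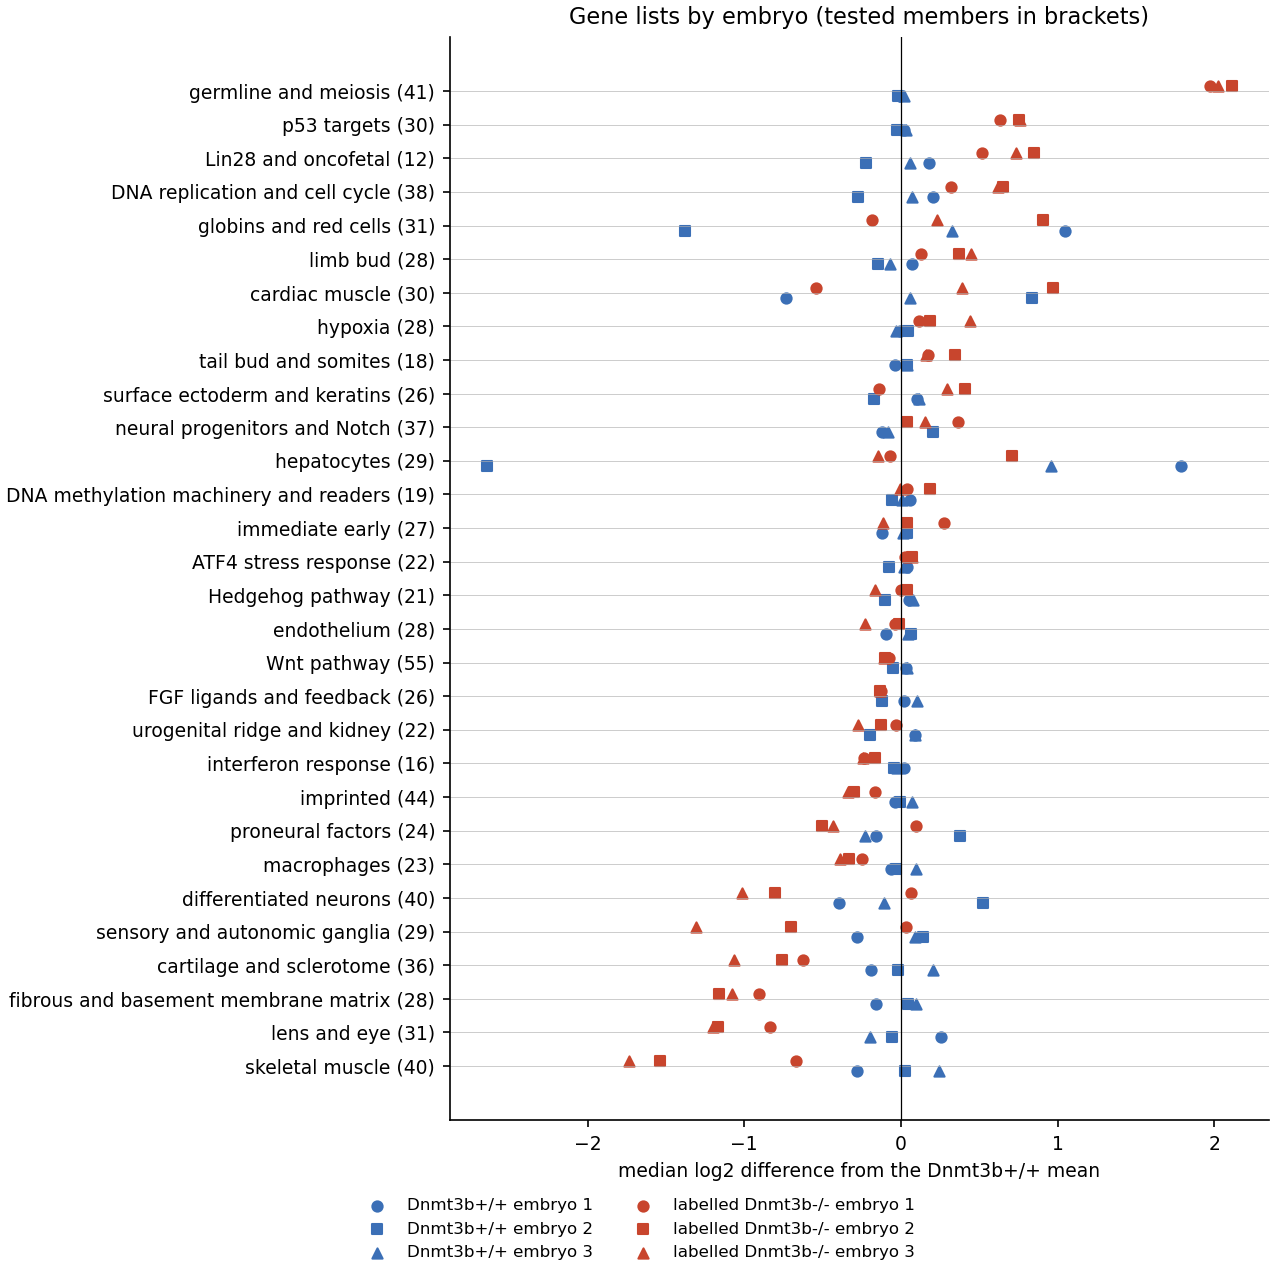
Median over the tested members of each list of the log2(FPKM + 0.1) value of an embryo minus the Dnmt3b+/+ mean (x axis), with lists on the y axis, Dnmt3b+/+ embryos in blue and libraries labelled Dnmt3b-/- in red, and embryos 1, 2 and 3 as circle, square and triangle. The list of germline genes stands at 1.97 to 2.11 in the libraries labelled Dnmt3b-/-, the list of skeletal muscle at -1.73 to -0.67, and the second Dnmt3b+/+ embryo stands apart for hepatocytes at -2.64.

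Targets of p53, the transcription factor activated by DNA damage and other stress, were higher. Of 31 listed genes, 30 were tested, 10 were called higher, 20 passed upwards and 1, Sesn1, passed downwards, with a median log2 fold change of 0.69. Ccng1 (cyclin G1) had 5.34, 4.87 and 5.14 FPKM in Dnmt3b+/+ and 14, 17.5 and 17.9 FPKM in the libraries labelled Dnmt3b-/- (log2 fold change 1.66 ± 0.11, SE, adjusted p = 8.82e-05). Pmaip1 (Noxa), a promoter of apoptosis, had 0.889, 0.599 and 0.559 FPKM against 3.34, 6.14 and 6.31 FPKM. Eda2r, a death receptor, had 0.167, 0.143 and 0.139 FPKM against 1.37, 1.65 and 1.77 FPKM, and the stress sensor Sesn2 had 3.42, 3.23 and 3.18 FPKM against 8.88, 9.70 and 9.09 FPKM. The groups did not overlap for any of these genes. Cdkn1a (p21), which arrests the cell cycle, had 7.41, 8.20 and 9.26 FPKM against 19.5, 16.6 and 15.2 FPKM, a log2 fold change of 1.04 ± 0.12 (SE, adjusted p = 0.00115) that lies just past 2-fold. Mdm2, which feeds back on p53, rose by a log2 fold change of 0.21 (adjusted p = 0.0207). Between 9 and 10 members were called with any 1 embryo left out. Dnmt3bCI/CI embryos had list medians of 0.04, 0.03 and 0.06.

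Only some immediate early genes, which cells switch on within minutes of a signal, moved. Of 28 listed genes, 27 were tested, 4 were called higher, 8 passed upwards and 3 passed downwards. Fos had 0.324, 0.563 and 0.325 FPKM in Dnmt3b+/+ and 3.25, 5.29 and 8.39 FPKM in the libraries labelled Dnmt3b-/- (log2 fold change 3.44 ± 0.32, SE, adjusted p = 4.27e-04). Fosb had 0.0287, 0.0707 and 0.0408 FPKM against 0.329, 2.30 and 3.21 FPKM. It met the filter on low values through the libraries labelled Dnmt3b-/- alone. Fosb could thus enter only if it rose, and it was not tested without any 1 of those libraries. Cyr61, a matricellular protein gene, had 7.22, 7.19 and 7.15 FPKM against 14.7, 19.9 and 22.0 FPKM. Fosl2, of the same family as Fos, passed downwards (-0.92), and Nr4a1 (-0.09) and Junb (0.02) did not pass. Without the second library labelled Dnmt3b-/- 2 members were called, and those passing downwards were 1 without it or the third Dnmt3b+/+ embryo and 5 without the first library labelled Dnmt3b-/-.

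Several glycolytic enzymes of the hypoxia list passed upwards. Of 28 genes, all tested, 10 passed upwards, 2 passed downwards and 0 were called. Gapdh had 126.4, 145.6 and 139.2 FPKM in Dnmt3b+/+ and 211.3, 246.0 and 245.0 FPKM in the libraries labelled Dnmt3b-/- (log2 fold change 0.77 ± 0.09, SE, adjusted p = 0.00109). Ldha, which makes lactate, had 78.7, 82.5 and 74.5 FPKM against 109.7, 149.9 and 162.1 FPKM. Aldoa, Pgk1, Eno1, Hk2 and Pfkl, also of glycolysis, passed upwards, as did Adm, Bnip3 and Ero1l. Ndrg1 and Bhlhe40 passed downwards, and Vegfa (0.04), Car9 (-0.35) and Egln3 (-0.04) did not pass. In this list 1 passed downwards without the second embryo of either group and 3 without the first library labelled Dnmt3b-/-. Without the third such library 1 was called higher. Of 23 listed genes of the ATF4 stress response, 22 were tested, 6 passed upwards, 3 passed downwards and 1, Sesn2, was called higher. Those passing upwards were 2 without the second Dnmt3b+/+ embryo or the second or the third library labelled Dnmt3b-/-, and those passing downwards were 1 without the third embryo of either group. Interferon-stimulated genes were 29, of which 28 were in the table and 16 were tested, and 1 passed upwards, while 1 was called without the first or the third Dnmt3b+/+ embryo or the third library labelled Dnmt3b-/-. Ifitm3 and Stat2, the most abundant of them, had log2 fold changes of -0.12 and -0.16 and did not pass.

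Genes of DNA replication and cell division were higher by less than 2-fold. Of 38 genes, all tested, 28 passed upwards, 0 passed downwards and 0 were called, with a median log2 fold change of 0.53. Rrm2, a subunit of ribonucleotide reductase, had 30.5, 19.3 and 26.5 FPKM in Dnmt3b+/+ and 37.5, 54.6 and 55.5 FPKM in the libraries labelled Dnmt3b-/- (log2 fold change 0.95 ± 0.19, SE, adjusted p = 0.00952). Pcna, the sliding clamp of DNA polymerase, had 45.6, 32.6 and 38.01 FPKM against 51.6, 62.7 and 59.0 FPKM. The number passing fell to between 7 and 17 without the second or the third embryo of either group, and was 28 or 32 without the first of a group.

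The oncofetal genes governed by or acting with Lin28, which mark early embryonic tissue and decline during organ formation, were also higher. Of 12 genes, all tested, 4 were called higher, 11 passed upwards and 0 passed downwards, with a median log2 fold change of 0.73. Lin28a, which blocks maturation of let-7 microRNAs and is also on the germline list, had 0.331, 0.105 and 0.128 FPKM in Dnmt3b+/+ and 0.791, 1.67 and 1.31 FPKM in the libraries labelled Dnmt3b-/- (log2 fold change 2.26 ± 0.32, SE, adjusted p = 0.00269). Trim71, a ubiquitin ligase and let-7 target, had 0.763, 0.392 and 0.699 FPKM against 1.63, 2.54 and 2.59 FPKM. Hmga2, a chromatin protein, had 24.1, 11.47 and 19.5 FPKM against 36.0, 39.8 and 36.6 FPKM, and Igf2bp1, an mRNA-binding protein gene, passed with 0.66. The groups did not overlap for these genes. Without the second Dnmt3b+/+ embryo 2 members were called higher and Utf1 was called lower.

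Of the embryonic globins Hbb-bh1 and Hba-x were higher and Hbb-y did not pass. Of 32 listed red cell genes, 31 were in the table and tested, 2 were called higher and 1, the water channel Aqp1, was called lower. Hbb-bh1, the embryonic beta-type globin of yolk sac erythrocytes, had 26.9, 46.1 and 23.2 FPKM in Dnmt3b+/+ and 113.4, 501.2 and 265.0 FPKM in the libraries labelled Dnmt3b-/- (log2 fold change 3.01 ± 0.48, SE, adjusted p = 0.00414). Hba-x (zeta globin) had 152.7, 310.3 and 183.8 FPKM against 376.5, 1347 and 712.6 FPKM. The second library labelled Dnmt3b-/- was the highest in both, and the groups did not overlap. Hbb-y, the most abundant embryonic beta-type globin, had 1121, 1701 and 1208 FPKM against 1278, 3825 and 2295 FPKM, with overlapping groups (log2 fold change 0.76, adjusted p = 0.161). Hba-a1 (-0.46) and Hbb-bs (-1.04), the adult forms, did not pass, nor did Alas2 (0.16), the first enzyme of heme synthesis in red cells. Without the third embryo of either group 1 gene was called higher, and without the second Dnmt3b+/+ embryo 3 were called lower.

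In shares within a globin family the total amount of globin RNA cancels. Hbb-bh1 made up 1.34%, 2.46% and 1.38% of the summed FPKM of Hbb-bh1, Hbb-y, Hbb-bs and Hbb-bt in Dnmt3b+/+ and 7.44%, 10.9% and 9.79% in the libraries labelled Dnmt3b-/-. Hba-x made up 9.01%, 29.7% and 18.2% of the summed FPKM of Hba-x, Hba-a1 and Hba-a2 against 46.2%, 51.8% and 52.1%. The groups did not overlap for either share (two-sided exact permutation p = 0.1, the smallest that 3 embryos against 3 can give). The share of Hbb-y overlapped, at 56.0%, 91.0% and 71.6% in Dnmt3b+/+ against 83.9%, 83.0% and 84.8% (two-sided exact permutation p = 0.4). Dnmt3bCI/CI embryos had Hbb-bh1 and Hba-x shares of 1.37% ± 0.336 and 12.9% ± 1.21 (SD, n = 3). The Dnmt3b+/+ embryo with the highest value of each share was the second, the one with almost no Alb. These shares were computed after the globin levels had been seen, and reads of near-identical globin genes can be divided among them.

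The counts of hepatocyte genes depended on that embryo. Of 32 genes, 29 were tested, and only Ttr, which is also made by the choroid plexus, was called lower (-2.19, adjusted p = 0.012), at a list median of 0.19. Without the second Dnmt3b+/+ embryo 15 genes were called lower, and the median was -1.20. The list's median difference from the Dnmt3b+/+ mean was 1.79, -2.64 and 0.96 in Dnmt3b+/+ and -0.07, 0.71 and -0.14 in the libraries labelled Dnmt3b-/-.

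Among signalling genes, the ligands Wnt9b, Shh and Fgf8 were higher. Of 55 Wnt genes, all tested, 1 was called higher, 2 were called lower, 3 passed upwards and 14 passed downwards. Over all tested genes 1.1% were called higher and 3.44% were called lower, so these called counts are near those shares. Wnt9b, a ligand of kidney and face development, had 0.679, 0.551 and 0.581 FPKM in Dnmt3b+/+ and 1.44, 1.19 and 1.44 FPKM in the libraries labelled Dnmt3b-/- (log2 fold change 1.05 ± 0.17, SE, adjusted p = 0.00458). Frzb, a secreted Wnt antagonist, had 2.96, 2.63 and 3.09 FPKM against 3.56, 8.28 and 6.83 FPKM and passed at just under 2-fold. Sfrp5, another secreted antagonist, had 1.65, 2.65 and 2.91 FPKM against 0.501, 0.557 and 0.195 FPKM, and the receptor gene Fzd9 was lower too. Axin2, a general target of the canonical pathway, had 8.16, 9.11 and 8.04 FPKM against 8.07, 7.85 and 8.88 FPKM, a log2 fold change of -0.03 (adjusted p = 0.81). Without the first library labelled Dnmt3b-/- 3 Wnt genes were called higher and 4 lower, without the first Dnmt3b+/+ embryo 2 were called higher, without the second 0, where Wnt9b had a log2 fold change of 0.99 (adjusted p = 0.0161) just under 2-fold, and without the second library labelled Dnmt3b-/- 1 was called lower. Those passing downwards were 8 without the third Dnmt3b+/+ embryo or the second library labelled Dnmt3b-/-, and those passing upwards were 7 without the first library labelled Dnmt3b-/- and 1 without the third embryo of either group.

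Of 21 Hedgehog genes, all tested, Shh was called higher and Ihh was called lower. Shh had 1.97, 1.66 and 2.22 FPKM in Dnmt3b+/+ and 4.29, 5.14 and 4.22 FPKM in the libraries labelled Dnmt3b-/- (log2 fold change 1.18 ± 0.17, SE, adjusted p = 0.00286). Ihh, the hedgehog ligand of cartilage, had 0.713, 0.468 and 0.803 FPKM against 0.247, 0.262 and 0.105 FPKM. The groups did not overlap for either ligand. Gli1 (-0.03) and Ptch1 (0.11), 2 common targets of the pathway, did not pass, and Ccnd1 passed with 0.83.

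Of 27 FGF genes, 26 were tested, Fgf8 was called higher and Fgfr4 and Fgf18 were called lower. Fgf8, a ligand of the limb ridge and of brain signalling centres, had 0.830, 0.372 and 0.642 FPKM in Dnmt3b+/+ and 1.06, 3.43 and 2.85 FPKM in the libraries labelled Dnmt3b-/- (log2 fold change 1.74 ± 0.40, SE, adjusted p = 0.0161). Its first library labelled Dnmt3b-/- was only slightly above Dnmt3b+/+. The FGF targets Etv4 (0.95) and Dusp6 (0.78) passed upwards, while the feedback genes Spry4 (-0.34) and Spry2 (-0.23) did not pass. Fgfr4, a receptor of muscle progenitors, had 3.45, 4.16 and 4.86 FPKM against 2.34, 1.42 and 0.954 FPKM. Without the second or the third library labelled Dnmt3b-/- 0 FGF ligands and feedback genes were called higher, without the first or without the third Dnmt3b+/+ embryo 2, and without the third of either group 1 was called lower. With the 6 embryos of these genotypes alone 0 were called higher, so Fgf8 lost its call there too.

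**Figure D5:**
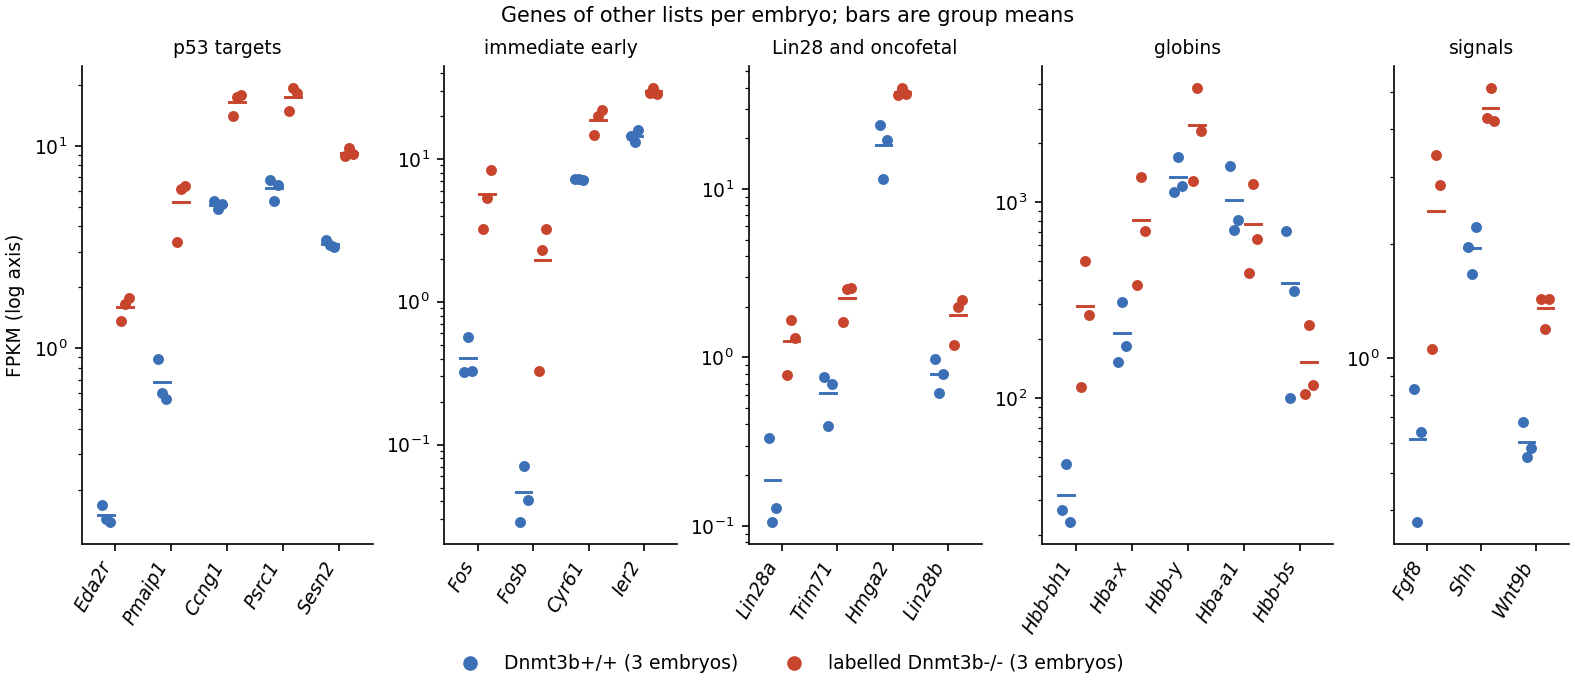
FPKM (y axis, log scale, separate for each panel) in each Dnmt3b+/+ embryo (blue) and each library labelled Dnmt3b-/- (red) for p53 targets, immediate early genes, Lin28 and oncofetal genes, globins and signalling ligands, with bars at group means. The groups overlap for Hbb-y, Hba-a1 and Hbb-bs and are separate for the other genes.

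Of 28 limb bud genes, all tested, Sall4 and Hoxd12 were called higher and 5 passed upwards, at a median of 0.26. Hoxd12, of the distal limb, had 1.71, 0.903 and 1.25 FPKM in Dnmt3b+/+ and 2.11, 3.89 and 2.84 FPKM in the libraries labelled Dnmt3b-/-. Without the first library labelled Dnmt3b-/- 7 members were called higher and 13 passed upwards, without the first Dnmt3b+/+ embryo 5, and without any other embryo 1 was called and 2 passed upwards. Of 26 tail bud and somite genes, 18 were tested and Tcf15, a somite factor, was called higher. It had 4.62, 3.87 and 6.43 FPKM against 16.0, 9.51 and 7.20 FPKM, the first library labelled Dnmt3b-/- being the highest. Without the first Dnmt3b+/+ embryo or the second library labelled Dnmt3b-/- 0 of this list were called higher, and without the third Dnmt3b+/+ embryo 2 were.

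Of 20 genes that write, erase or read DNA methylation, 19 were tested, 6 passed upwards, 4 passed downwards and 0 were called. Over all tested genes 9.73% passed upwards and 16.7% passed downwards. The 4 of 19 passing downwards are near that share and are not read as a result about this list. Without the second or the third embryo of either group 3 passed upwards, and without the second library labelled Dnmt3b-/- 2 passed downwards. Uhrf1, which guides maintenance methylation after replication, had 33.2, 24.5 and 29.4 FPKM in Dnmt3b+/+ and 42.5, 52.7 and 51.7 FPKM in the libraries labelled Dnmt3b-/- (log2 fold change 0.76 ± 0.12, SE, adjusted p = 0.00373). Its partner Dnmt1 (0.37) and the chromatin remodeller gene Hells (0.72) passed upwards. Dnmt3a, the other de novo enzyme, had 15.9, 14.04 and 15.2 FPKM against 13.5, 12.0 and 11.9 FPKM (log2 fold change -0.27, adjusted p = 0.0313), and the demethylase genes Tet2 (-0.51) and Tet3 (-0.40) passed downwards as well. Dnmt3l was below the filter. Of 45 imprinted genes, 44 were tested, 3 were called lower, 4 passed upwards and 15 passed downwards. Dlk1, a Notch-like regulator of growth, had 58.9, 60 and 75.2 FPKM in Dnmt3b+/+ and 28.7, 27.7 and 26.5 FPKM in the libraries labelled Dnmt3b-/- (log2 fold change -1.22 ± 0.09, SE, adjusted p = 1.79e-04). The non-coding RNA genes Nespas (-1.31) and Airn (-1.10) were called lower, and both lie antisense to or overlap protein-coding genes, so reads may be shared. Nespas lost its call in 5 alternatives and Airn in 2. Igf2 passed at -0.37, and H19 did not pass (-0.15). Without the first library labelled Dnmt3b-/- 6 members were called lower. Those passing downwards were 7 without the third Dnmt3b+/+ embryo and 8 without the second or the third library labelled Dnmt3b-/-, and those passing upwards were 2 without the first Dnmt3b+/+ embryo or the second or the third library labelled Dnmt3b-/-.

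Few genes of other tissues were called. Of 25 macrophage genes, 23 were tested, 9 passed downwards, 1 passed upwards and 0 were called, and Ctss, a lysosomal protease, passed at -0.86. Without the second or the third Dnmt3b+/+ embryo 4 passed downwards, and without the second or the third library labelled Dnmt3b-/- 3 did. Of 28 endothelial genes, 1, Plvap, passed upwards (0.39) and 2 passed downwards, and the tight junction gene Cldn5 did not pass (-0.32), while 6 passed downwards without the first library labelled Dnmt3b-/-. Of 30 genes of cardiac muscle, 3 passed downwards and only Sln, a regulator of the calcium pump, was called lower, with 5 passing downwards without the first Dnmt3b+/+ embryo and 1 without the third or any 1 library labelled Dnmt3b-/-, while the list medians of the embryos were as far apart within a genotype as between genotypes. Of 27 genes of surface ectoderm and keratins, 26 were tested and Pkp1 and Krt15 were called lower, or 1 of them without the second or the third library labelled Dnmt3b-/-. Of 24 urogenital genes, 22 were tested and 0 passed the adjusted p in limma, while 1 higher and 2 lower genes had an unadjusted p under 0.05. Without the first library labelled Dnmt3b-/- 3 passed upwards and 2 were called higher, without the first Dnmt3b+/+ embryo 1 was called higher, and without the second 3 passed downwards and 1 was called lower. Six2, a factor of kidney progenitors, had 27.9 ± 6.997 FPKM in Dnmt3b+/+ against 29.5 ± 2.84 FPKM in the libraries labelled Dnmt3b-/- (SD, n = 3). Of the 5 sex-linked genes, 4 were tested and 0 passed.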

How the data were processed

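Total RNA was sequenced by the authors on a NovaSeq instrument as paired-end reads. According to their methods and the submitters' processing notes, trimmed reads were aligned with STAR to mm10, quantified in SeqMonk and tested with DESeq2. They deposited FPKM values per gene on the linear scale, with the annotation release and strandedness not given in the sources used here. For genes with no reads the table holds a small value that corresponds to 0.9 reads, and reads were worked back for 96.8% of genes. At these depths 3 reads in each library of a group were taken as the floor, and folds against it are lower bounds that cover counting error only. A row without a gene name was left out.

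The test was limma 3.58.1 (R 4.3.3) with a trend on the mean level, run over all 9 embryos on values transformed to log2(FPKM + 0.1), with Benjamini-Hochberg adjustment. A fold change on this scale understates the change of low genes. The fit was tried on simulated data. Changes were planted there only in genes of at least 1 FPKM in at least 3 embryos, and embryos of a group had the same expected levels. That trial thus does not cover genes of lower level or embryos that differ in tissue content. Groups are those of the labels, and the labels call the embryos of a genotype independent, with litters not given in the sources used here. The comparison, its members and the gene lists were chosen with earlier results of these data known. Genes named are Dnmt3b, genes singled out by the study, up to 5 called members of a list in each direction by log2 fold change, or the 2 most abundant members where none was called, and the most changed genes overall. Other members were picked after their values were seen. Gene positions are from GENCODE M21 and promoters from RefSeq, both on GRCm38. Tables were handled in python 3.11.15 with pandas 2.3.3. Alternatives were the pseudocount, the filter, the scaling, the samples in the model, a replicate block, robust moderation, an unadjusted p, and each embryo left out. A term for Xist and voom on the reads were added after seeing the data. The bisulfite sequencing samples of the series were not analysed here. Values of a few listed genes are not reported here.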

Additional observations from a re-analysis of the deposited data

How the results depend on the processing

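The main model called 208 higher and 650 lower genes. A pseudocount of 1 FPKM, which by construction shrinks the fold change of low genes, gave 60 and 133, and a filter of at least 1 FPKM, which tests fewer genes, gave 96 and 337. Lower genes were 403 with quantile normalization and 987 with voom on the reads, added after seeing the data. The scaling also moved the split of the adjusted p alone, from 1840 higher and 3159 lower genes to 2273 and 2079 with quantile normalization and 2531 and 2573 with median-of-ratios scaling. With the 6 embryos of these genotypes alone, 1038 higher and 1759 lower genes passed. Leaving out 1 embryo at a time gave 104 to 243 higher and 426 to 1166 lower genes called, and 779 to 2274 higher and 1617 to 4527 lower genes passing. The lowest counts of called genes came without the second library labelled Dnmt3b-/- for higher genes and without the third for lower genes, and 1166 came without the first. Same-numbered embryos did not deviate together (correlations of -0.298, -0.345 and 0.005), so the numbers do not pair them, and with the replicate block 201 higher and 538 lower genes were called and 1093 and 1963 passed.

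Of the 77 named genes called in the main model, 44 were called in every alternative that tested them. Crybb1 lost its call in 12, Bhlhe22 and Cnr1 in 10, and Avil, Gfra2 and Tcf15 in 9. Genes that were not called changed sign, Mbd3 to -0.019 with quantile normalization, Vim to 0.043 with median-of-ratios scaling, and Eif2s3y to -0.19 and Ddx3y to -0.16 with the term for Xist. With 1 embryo left out at a time, log2 fold changes ranged over Eif2s3y -0.205 to 2.768, Ddx3y -0.153 to 2.665, Ifitm3 -0.298 to 0.075, Pf4 -0.515 to 0.546, Vim -0.092 to 0.070 and Six2 -0.094 to 0.277.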

Other observations

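The groups described here were chosen after their values had been seen, and no test was made of them as groups. Chromosome X held 26 of the higher genes among 591 tested (4.40%), against 1.1% over all genes. They included all 7 tested members of the Xlr family, 3 of which passed the filter on low values through the libraries labelled Dnmt3b-/- alone, genes of lymphoid and germ cells that lie in near-identical copies and can share reads. Xlr3a had 0.166, 0.268 and 0.221 FPKM in Dnmt3b+/+ and 5.29, 3.85 and 4.33 FPKM in the libraries labelled Dnmt3b-/- (limma log2 fold change 3.85, adjusted p = 2.13e-05). The Dnmt3b+/+ embryo with Xist was the lowest of its group for Xlr3a. Of 34 Rhox genes, reproductive homeobox genes of the same chromosome, only Rhox5 (1.64) and Rhox6 (1.93) reached the filter, and both were called higher. Rhox6 met it through the libraries labelled Dnmt3b-/- alone, so it could enter only if it rose, and 1 Rhox gene was called without any 1 of those libraries. AU022751 (6.63), Gm4779 (6.01) and 8030474K03Rik (5.996), also on chromosome X, were among the 10 genes with the greatest log2 fold changes.

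All 4 Nuclear factor I genes, a family of transcription factors, were called lower. Nfix had 11.4, 14.8 and 14.6 FPKM in Dnmt3b+/+ and 4.004, 1.84 and 1.76 FPKM in the libraries labelled Dnmt3b-/- (log2 fold change -2.47 ± 0.28, SE, limma adjusted p = 0.00101), and Nfia, Nfib and Nfic had log2 fold changes of -1.13, -1.37 and -1.20. Of 54 Hist1 histone genes, 48 were tested, 15 were called higher and 0 were called lower, with Hist1h1b at 0.603, 0.162 and 0.172 FPKM against 2.02, 1.43 and 1.09 FPKM. Between 5 and 18 were called with 1 embryo left out, the fewest without the second library labelled Dnmt3b-/-. Many of these genes are near-identical and can share reads. Of 21 tested protocadherin genes of the Pcdhb cluster, 17 passed downwards and 0 passed upwards, 2 of the 21 having met the filter through Dnmt3b+/+ alone. The number passing was 20 without the first library labelled Dnmt3b-/-, 11, 9 and 10 without the first, the second and the third Dnmt3b+/+ embryo, and 9 without the second or the third library labelled Dnmt3b-/-. In the neighbouring Pcdha and Pcdhg clusters the genes end at nearly the same position and had near-equal reads for most members, so their rows can repeat the same reads and no count over them is given. In the Pcdhb cluster, Pcdhb7 had 1.15, 1.51 and 1.26 FPKM against 0.458, 0.417 and 0.338 FPKM.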
